A study of Mus musculus with 8 samples.

Results

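The genes described here are those of glucose uptake, glycolysis, lactate handling and glycogen, taken from the comparison of Grp94 knockdown with empty vector in neuro2a (N2a) cells. They were chosen by name from a set of 35 symbols, and 25 of them were found in the deposited table, which holds 2454 gene symbols on 2395 transcript clusters. A transcript cluster is the group of probes that the array assigns to 1 gene. N2a is a mouse neuroblastoma line that is widely used as a neuronal cell model. The cells were transfected with vectors expressing an artificial microRNA against Grp94 (Hsp90b1), an ER chaperone, or with an empty vector, and total RNA was collected 2 days later. RNA was hybridised to Affymetrix Mouse Gene 1.0 ST arrays, 4 per group. The labels call the groups Vector knockdown and Grp94 knockdown (spelled Gep94 in the sample titles), name no other difference between them, and both received a plasmid. The paper also used a vector with a non-targeting microRNA as a control, and the labels show none here. Expression of any artificial microRNA therefore cannot be told apart from loss of Grp94. The knockdown made use of more than 1 construct, which the labels do not assign to arrays, and RNA came from the whole transfected culture, so the values average over all cells in the dish.

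Glycolysis breaks glucose down to pyruvate in the cytosol and yields ATP without oxygen. Glucose enters through facilitative transporters, is trapped by hexokinase, and is split by aldolase into triose phosphates that are oxidised further down the pathway. Pyruvate then either enters the mitochondria through pyruvate dehydrogenase or is reduced to lactate, which leaves the cell through monocarboxylate transporters. Glucose can also be stored as glycogen, a branched polymer that is built by glycogen synthase and the branching enzyme and taken apart by glycogen phosphorylase. Brain tissue relies heavily on glucose, and many genes of this pathway are textbook targets of the hypoxia-inducible factors (HIF).

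Each group is represented in the table by 1 value per transcript cluster, the authors' normalized log2 mean over its arrays, which is centred near 0 and keeps no level of expression. It holds no value for a single array, so no gene can be given an SD, standard error or interval, and every value below is a description without a test. The table stops at the authors' adjusted p of 0.01, so genes entered it because they differed in this same contrast, and a gene without a row has no value here. Differences are the knockdown mean minus the empty vector mean, in log2 units, so a negative value is lower in the knockdown. With 4 arrays in each group, the number of arrays limits their precision. Hsp90b1, the target, had a centred mean of 0.74 in the empty vector and -0.78 in the knockdown, a difference of -1.52. Of 15 neuroblastoma and neuron markers 6 had a row, with differences from -0.20 to 0.49, and none of the 15 markers of astrocytes, microglia, fibroblasts and oligodendrocytes had one. Centred values cannot show whether any marker is expressed, so the cell type could not be checked.

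All 25 listed members were lower in the knockdown and 0 were higher, except that Gapdh turned to 0.03 when values were re-centred on the median of all listed transcript clusters. In the table as a whole 59.9% of transcript clusters (59.3% of gene symbols) were lower and 40.1% (40.7% of gene symbols) were higher. The median difference of the members was -0.52, within a range of -1.24 to -0.14, while that of all listed transcript clusters was -0.16. By over 1.3-fold, 16 of the 25 were lower and 0 were higher, where 16.1% of the listed transcript clusters (15.2% of gene symbols) were lower and 6.26% (5.91% of gene symbols) were higher by that much. The members were put together with results of this contrast known, so these counts are a description. Pfkm, at a difference of -0.42, lay just inside the 1.3-fold limit, and Aldoa, at -0.35, just outside it.

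**Figure D1:**
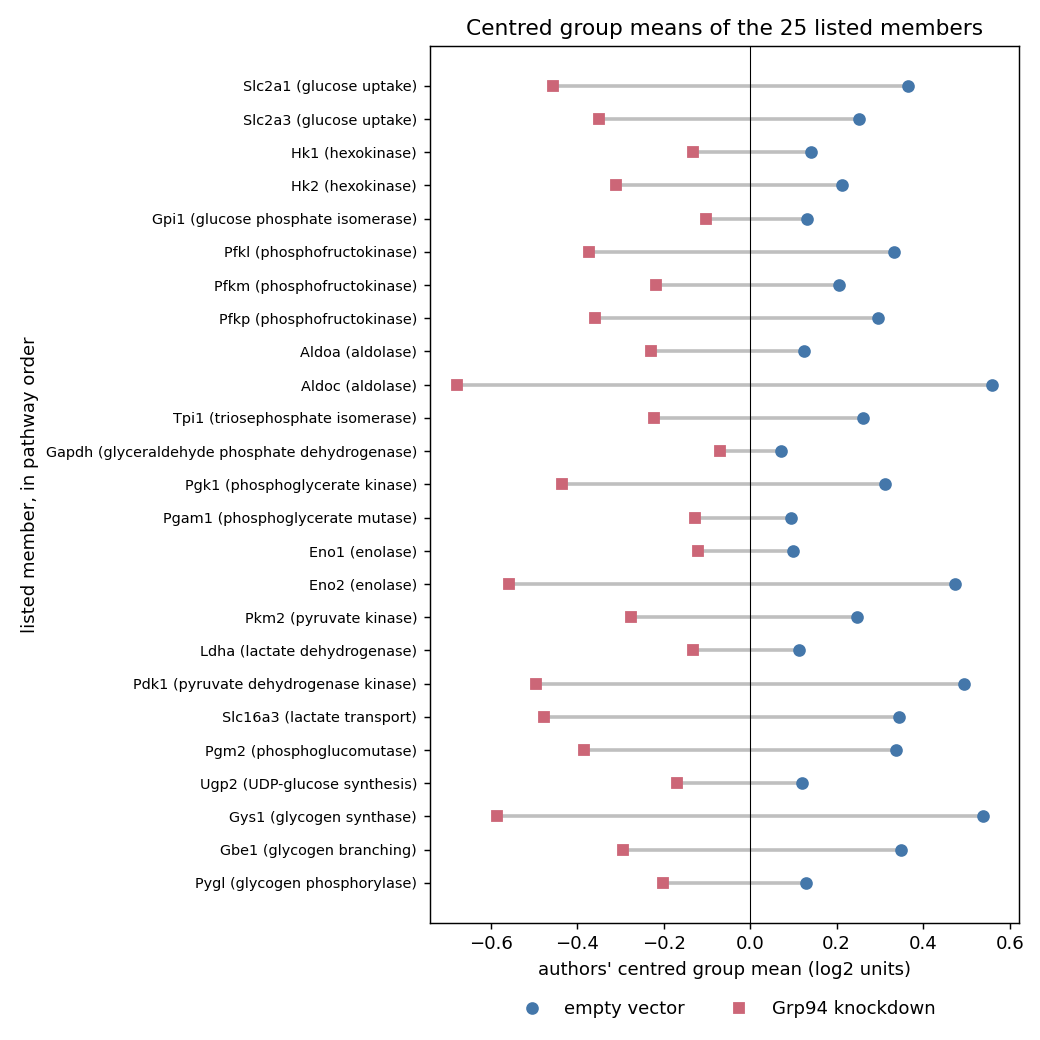
Centred group means of the 25 listed members (horizontal axis, log2 units, the authors' means with no error available), in pathway order from glucose uptake at the top to glycogen breakdown at the bottom; blue circles are the empty vector and red squares the Grp94 knockdown. The red square lies left of the blue circle for every gene, and the gap is widest for Aldoc (-1.24) and narrowest for Gapdh (-0.14).

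**Figure D2:**
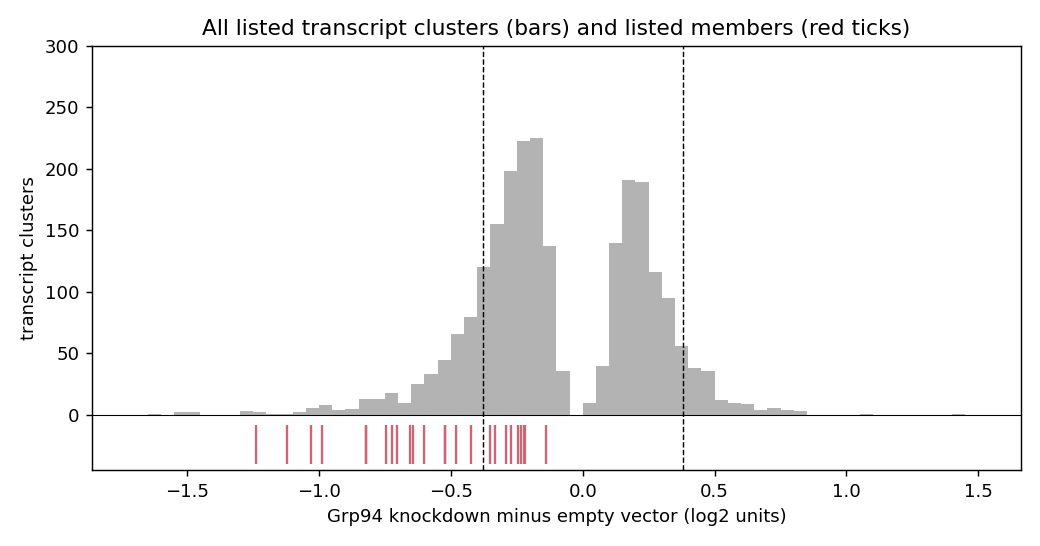
Distribution of the difference, Grp94 knockdown minus empty vector (log2 units), over all 2395 listed transcript clusters (grey bars), with a red tick for each of the 25 listed members and dashed lines at a fold change of 1.3. The gap around 0 reflects the limit on the adjusted p in the table, and all red ticks lie to the left of it.

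The bases before the start site are shown for some of the members, as given by RefSeq on GRCm38.p6. Whether any site in them bears on the differences was not tested. Aldoc, Gys1 and Eno2 are shown as the members that were lower by over 2-fold, and Slc2a1, Pgk1 and Pgm2 as examples of members that hold a pair of hypoxia response cores there. The hypoxia response element, the site HIF binds, has the core ACGTG or GCGTG, which was searched on both strands. Capitals mark these cores, except in Gys1, where they mark CCAAT on either strand, the box bound by NF-Y. Each run is 250 bases, read 5′ to 3′ on the strand of the gene and ending at the base before the start. The positions are chr11:78322823-78323072 (plus strand) for Aldoc, chr7:45434589-45434838 (plus) for Gys1, chr6:124769674-124769923 (minus) for Eno2, chr4:119108495-119108744 (plus) for Slc2a1, chrX:106186850-106187099 (plus) for Pgk1 and chr4:99929201-99929450 (plus) for Pgm2.
Aldoc: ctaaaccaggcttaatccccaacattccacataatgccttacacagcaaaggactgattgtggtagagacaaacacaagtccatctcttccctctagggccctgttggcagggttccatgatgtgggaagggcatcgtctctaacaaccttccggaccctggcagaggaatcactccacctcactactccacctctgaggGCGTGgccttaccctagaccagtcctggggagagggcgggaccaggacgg
Gys1: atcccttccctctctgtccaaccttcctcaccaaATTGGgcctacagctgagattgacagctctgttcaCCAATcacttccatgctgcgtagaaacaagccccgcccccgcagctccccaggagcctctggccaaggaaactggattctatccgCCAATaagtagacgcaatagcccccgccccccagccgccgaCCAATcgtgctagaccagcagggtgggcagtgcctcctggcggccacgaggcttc
Eno2: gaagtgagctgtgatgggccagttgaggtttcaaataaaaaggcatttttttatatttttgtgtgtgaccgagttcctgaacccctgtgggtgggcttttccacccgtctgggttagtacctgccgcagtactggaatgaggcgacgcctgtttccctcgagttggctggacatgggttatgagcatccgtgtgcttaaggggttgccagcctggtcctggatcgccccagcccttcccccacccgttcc
Slc2a1: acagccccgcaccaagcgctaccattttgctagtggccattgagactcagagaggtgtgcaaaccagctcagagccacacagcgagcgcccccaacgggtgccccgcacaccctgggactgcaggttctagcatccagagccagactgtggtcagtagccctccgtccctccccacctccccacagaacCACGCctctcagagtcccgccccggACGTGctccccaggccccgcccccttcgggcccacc
Pgk1: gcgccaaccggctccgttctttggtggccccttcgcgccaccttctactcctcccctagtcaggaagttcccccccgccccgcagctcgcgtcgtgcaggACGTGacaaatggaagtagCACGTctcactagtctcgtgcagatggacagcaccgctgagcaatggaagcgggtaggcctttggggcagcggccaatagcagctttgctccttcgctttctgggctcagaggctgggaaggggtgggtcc
Pgm2: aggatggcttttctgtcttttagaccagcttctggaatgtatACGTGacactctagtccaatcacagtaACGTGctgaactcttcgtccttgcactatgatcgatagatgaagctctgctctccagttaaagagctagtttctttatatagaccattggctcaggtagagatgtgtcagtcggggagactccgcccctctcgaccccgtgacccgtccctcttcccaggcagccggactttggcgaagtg

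Counted from the start, the cores began at -150 and -131 in Pgk1, at -61 and -36 in Slc2a1, at -208 and -181 in Pgm2 and at -50 in Aldoc. Gys1 and Eno2 held none in these bases. In Gys1 a CCAAT box was found at -216, -181, -96 and -55. It is not particular to Gys1. Left unmarked in the runs above, it also began at -193 and -96 in Pgm2 and at -58 in Pgk1.

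Glucose uptake comes first in the pathway, and both listed transporters were lower. Slc2a1 (Glut1), the glucose transporter found in most cell types, had a centred mean of 0.37 in the empty vector and -0.46 in the knockdown, a difference of -0.82 or 1.77-fold lower. Slc2a3 (Glut3), the transporter typical of neurons, had 0.25 and -0.35, a difference of -0.60. Slc2a3 minus Slc2a1 was 0.22 on this scale. With group means alone, no difference between isoforms can be tested here or in the steps that follow.

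Hexokinase traps glucose by phosphorylating it. Hk2, the inducible isoform, had centred means of 0.21 and -0.31, a difference of -0.52, and Hk1, the isoform of most tissues and of brain, had 0.14 and -0.13, a difference of -0.27. Gpi1, which turns glucose phosphate into fructose phosphate, had a difference of -0.24 on the transcript cluster with most probes.

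Phosphofructokinase carries out the committed step and is built from subunits encoded by a family of 3 genes, all of which were listed. The liver-type subunit Pfkl had centred means of 0.33 and -0.37, a difference of -0.70. The platelet-type subunit Pfkp, which is abundant in brain, had 0.29 and -0.36, a difference of -0.65. The muscle-type subunit Pfkm had 0.21 and -0.22, a difference of -0.42. Pfkl and Pfkp lay 0.05 apart in log2 units, and Pfkm was 0.28 and 0.23 above them. The bifunctional enzymes Pfkfb2, Pfkfb3 and Pfkfb4, which make and remove the sugar bisphosphate that activates phosphofructokinase, had no row.

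Aldolase splits the hexose into triose phosphates. Aldoc, the brain-type isozyme (chr11:78137700-78140547 in the table, whose build is not given), had the largest difference of the 25 members. Its centred mean was 0.56 in the empty vector and -0.68 in the knockdown, 2.36-fold lower, which placed it at rank 10 from the lowest of 2395 transcript clusters. Aldoa, the isozyme of muscle and most other cells, had 0.12 and -0.23, a difference of -0.35. Aldoc minus Aldoa was -0.89, the widest gap of the 7 isozyme pairs compared. Tpi1, which interconverts the triose phosphates, had centred means of 0.26 and -0.22, a difference of -0.48.

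In the lower part of glycolysis the differences were uneven from step to step. Gapdh, which oxidises the triose phosphate, had -0.14, the smallest difference of the 25 members and the one that turned on re-centring. Pgk1, which makes the first ATP of the pathway, had centred means of 0.31 and -0.43, a difference of -0.75, and Pgam1, the mutase of the next step, had -0.22. Pgk1, at 1.68-fold, thus stood between neighbours in the pathway that were lower by 1.10-fold and 1.17-fold.

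Enolase makes phosphoenolpyruvate. Eno2, the neuronal isozyme (chr6:124710071-124719527 in the table), had centred means of 0.47 and -0.56, a difference of -1.03 or 2.04-fold lower. Eno1, the isozyme of most tissues, had 0.10 and -0.12, a difference of -0.22, on a transcript cluster of chromosome 18 that also carried another symbol. The one on its own chromosome 4, with 10 probes, had 0.13 and -0.09, a difference of -0.22. Eno2 minus Eno1 was -0.81. The table names Eno2 and Eno1 as the neuronal and the non-neuronal enolase. Pyruvate kinase, listed under its older symbol Pkm2 (Pkm in RefSeq), makes pyruvate and had 0.25 and -0.28, a difference of -0.52.

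Each of the 10 enzymatic steps from hexokinase to pyruvate kinase therefore had at least 1 listed enzyme, and all of those were lower. The order of the differences did not follow the order of the steps. The isozymes of 1 step had differences of unequal size, with Hk2, Aldoc and Eno2 below Hk1, Aldoa and Eno1, and Pfkl and Pfkp below Pfkm.

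The fate of pyruvate is set by lactate dehydrogenase and by the kinases that inactivate pyruvate dehydrogenase. Pdk1, 1 of those kinases (chr2:71711281-71740731 in the table), had centred means of 0.49 and -0.50, a difference of -0.99 or 1.99-fold lower. Slc16a3 (Mct4), the transporter that exports lactate from glycolytic cells, had 0.34 and -0.48, a difference of -0.82. Ldha, the subunit that favours lactate production, had 0.11 and -0.13, a difference of -0.24. Ldhb, Pdk3 and Slc16a1 (Mct1) had no row, so their isoforms cannot be set beside these.

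The genes of glycogen were lower along the route of synthesis. Gys1, glycogen synthase of muscle and brain (chr7:52690371-52711472 in the table), had centred means of 0.54 and -0.58, a difference of -1.12 or 2.18-fold lower, at rank 12 from the lowest. Phosphoglucomutase, which moves the phosphate between positions of glucose at the entry to glycogen, was listed as Pgm2 and had 0.34 and -0.38, a difference of -0.72. Its Entrez identifier, 72157, belongs to the gene that RefSeq now calls Pgm1, while the gene that carried the symbol Pgm1 when the array was annotated had no row.

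Gbe1, the branching enzyme, had centred means of 0.35 and -0.29, a difference of -0.64. Ugp2, which makes the UDP-glucose that glycogen synthase uses, had 0.12 and -0.17, a difference of -0.29. Pygl, the liver form of glycogen phosphorylase, was the only listed gene of glycogen breakdown among the members, with 0.13 and -0.20 and a difference of -0.33. Ppp1r3c, which targets a phosphatase to glycogen, and the phosphorylases Pygb and Pygm had no row.

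For 5 of the 25 members several transcript clusters carried the symbol, so that 59 transcript clusters stood behind all 25. Gapdh had 28, on 17 chromosomes, of which 17 also carried symbols of other genes or pseudogenes. Their differences ran from -0.20 to -0.10 around a median of -0.14. Of those on the chromosome of the gene itself, the longest (chr6:125111872-125115623 in the table, 74 probes, shared with the pseudogene symbol Gm2606) had -0.13. A shorter one there, with 27 probes, had -0.12. Copies of this kind share sequence with the parent, so the 28 values are not independent readings and their sources cannot be told apart.

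The other genes with several transcript clusters showed the same closeness. The 3 transcript clusters of Pgk1 all had a difference of -0.75, the 3 of Pgam1 from -0.24 to -0.22 and the 3 of Eno1 all of -0.22. For Gpi1, the transcript cluster with 25 probes had -0.24 and the one on its own chromosome, with 14 probes, had -0.20.

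**Figure D3:**
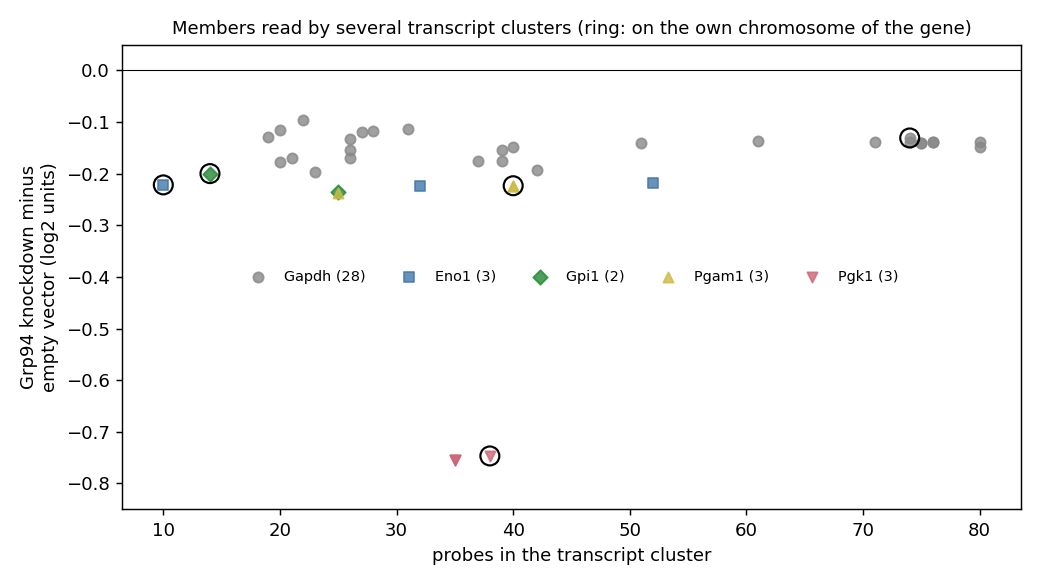
Difference between Grp94 knockdown and empty vector (vertical axis, log2 units) against the number of probes (horizontal axis) for the members read by several transcript clusters, with the number of clusters in the legend and a ring around the one on the gene's own chromosome. Where several lie there, the longest is ringed. The 28 Gapdh clusters lie between -0.20 and -0.10 at any number of probes, and the 3 Pgk1 clusters lie together near -0.75.

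The rest of glucose metabolism was covered by lists of 151 further symbols, including older aliases, of which 24 had a row. The median difference of these 24 genes was -0.24. Lower values were found for 19 and higher values for 5 (17 and 7 after re-centring), and 5 were lower by over 1.3-fold, where 16.1% of all listed transcript clusters were. After re-centring, 1 was lower and 1 higher by that much. Among 16 other transporters of glucose and monocarboxylates and their partners, and among 21 symbols of other glycolytic isozymes and side enzymes, 0 had a row.

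In gluconeogenesis 3 of 7 symbols had a row. Pck2, the mitochondrial enzyme that makes phosphoenolpyruvate, had centred means of 0.26 and -0.37, a difference of -0.63. Slc37a4, the transporter of glucose phosphate into the ER, had -0.46, and Fbp1, which acts against phosphofructokinase, had 0.11. At the entry of pyruvate to the mitochondria 2 of 14 symbols had a row. Pcx, which carboxylates pyruvate, had -0.41, and Pdp1, the phosphatase that acts against the pyruvate dehydrogenase kinases, had 0.13. Pdk1 and Pdp1, which act against each other, thus had differences of opposite sign, and so did the phosphofructokinases and Fbp1. These pairs were picked after the values were seen, and opposite signs were not general. Pck2, Slc37a4 and Pcx were lower, as the listed glycolytic enzymes were. Gys1 and Pygl, which build glycogen and take it apart, were both lower.

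Of 25 other symbols of glycogen metabolism 4 had a row and all were lower, led by Epm2a (laforin, the glycogen phosphatase) with -0.48. In the pentose phosphate pathway 3 of 4 listed genes were lower. G6pdx, the enzyme that feeds glucose phosphate into it and makes NADPH, had -0.39, and its near copy G6pd2 had -0.30. As near copies, G6pdx and G6pd2 may not be independent readings, though both are counted. Prps2, which makes the activated ribose for nucleotides, had 0.23. All 5 listed genes of the hexosamine and nucleotide sugar route were lower, and none by over 1.3-fold. Over all listed transcript clusters 59.9% were lower, and 16.1% by over 1.3-fold, so lists this small cannot be told from the whole. Both listed genes of the electron shuttles were lower, with Got1, the cytosolic aspartate aminotransferase, at -0.31.

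The tricarboxylic acid cycle was divided, with 2 of 4 listed genes lower and a median of -0.01. The lowest was Idh1, the cytosolic isocitrate dehydrogenase, at -0.21, and the highest was Suclg2, a subunit of succinyl-CoA ligase, at 0.20 on the transcript cluster with most probes. None of these 4 passed 1.3-fold, where 16.1% of all listed transcript clusters were lower and 6.26% higher by that much. With only 4 genes, this cannot be told from those shares.

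**Figure D4:**
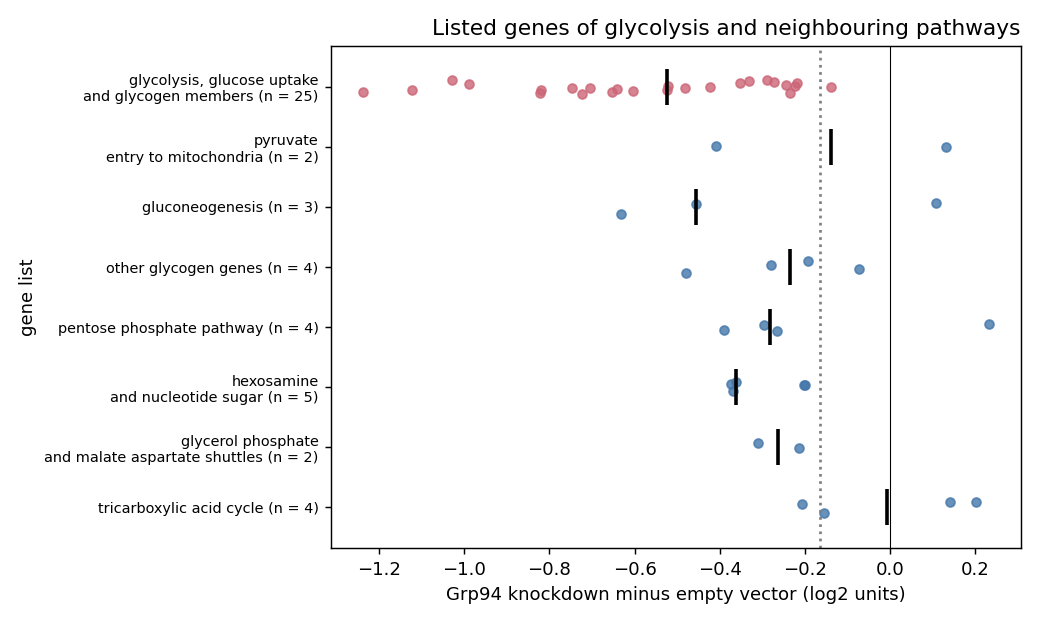
Difference between Grp94 knockdown and empty vector (horizontal axis, log2 units) for the listed members (red) and the listed genes of 7 neighbouring lists (blue), with a black bar at each median and a dotted line at the median of all listed transcript clusters (-0.16); points are spread vertically only to be seen apart. Members reach -1.24 with a median of -0.52, while the lowest gene of the other lists is Pck2 at -0.63 and the tricarboxylic acid cycle lies around 0.

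The sequence around the start sites of the members was searched as well. Many genes of this pathway are textbook HIF targets, so the shares of hypoxia response cores are not independent of the choice of members. They describe the genes named and not the knockdown. RefSeq windows of 300 bases, from 250 before to 50 after each start, were found for 24 of the 25 listed members, 37 windows in all. Slc2a3 had no window. The core ACGTG was found in 45.9% of these windows (17 of 37, 95% Wilson interval 31.0% to 61.6%). The interval takes windows as independent, which overlapping windows of 1 gene are not, so it is too narrow. In the windows of all protein-coding genes the share was 20.9%, in those of the other genes lower by over 1.3-fold 23.7% and in those of genes higher by over 1.3-fold 27.0%. For the core GCGTG the shares were 48.6% in members and 38.5%, 47.8% and 45.9% in these other sets.

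Counted by gene, 15 of 24 members (62.5%) had ACGTG in at least 1 window, compared with 23.2% of protein-coding genes. Base composition and the number of windows differed between the sets as well. The median window of members held 61.3% G and C and 20 CpG pairs, that of protein-coding genes 56.3% and 13, and that of genes higher by over 1.3-fold 63.7% and 21.5. Members had 1.54 windows per gene against 1.22 for protein-coding genes. Windows of 1 gene can overlap and hold the same core, and the part of composition in the shares was not tested.

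Either core was found in 19 of 24 members (79.2%), compared with 52.3% of protein-coding genes, 62.9% of the other genes lower by over 1.3-fold and 69.4% of genes higher by over 1.3-fold. Gpi1, Tpi1, Eno2, Gys1 and Gbe1 held none.

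The CCAAT box was found in 35.1% of member windows and 38.2% of those of protein-coding genes, and the E-box CACGTG, which contains ACGTG, in 5.41% and 7.84%. The letters TATAAA were in 8.11% and 12.6%. A match is a run of letters and shows no binding.

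**Figure D5:**
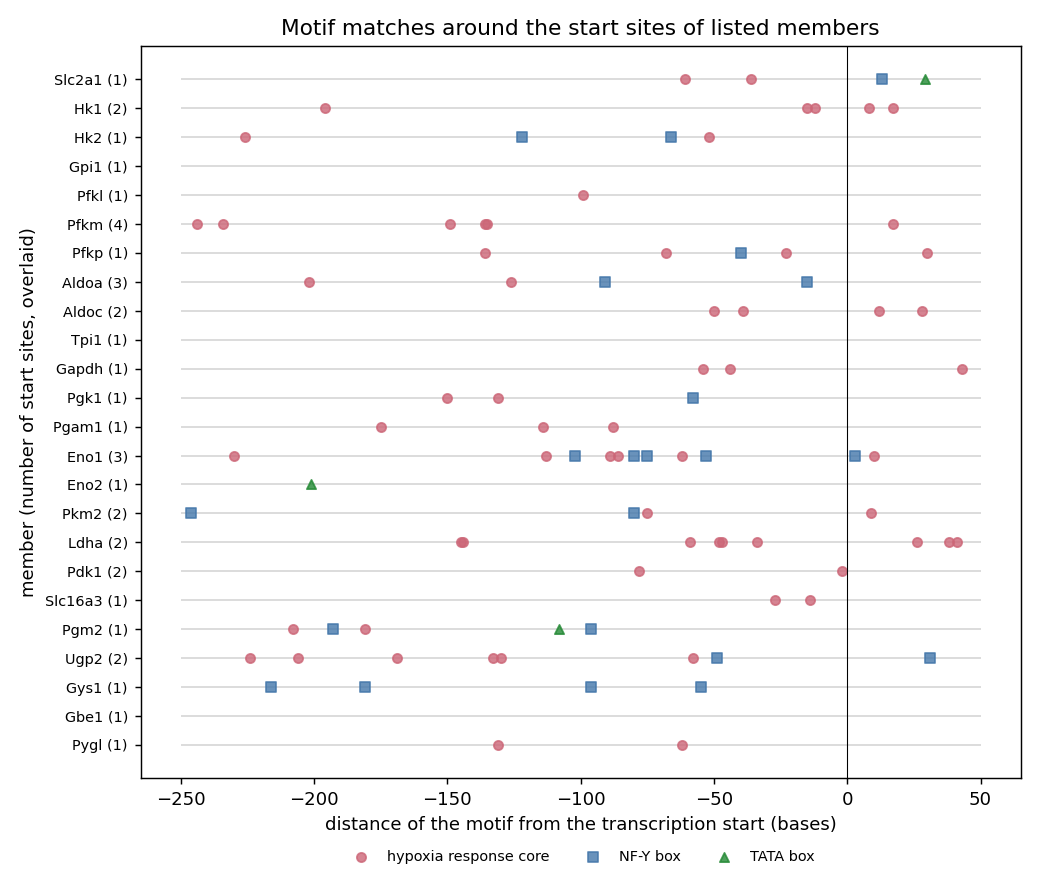
Positions of motif matches (horizontal axis, bases from the transcription start, both strands) in the RefSeq windows of 24 listed members in pathway order; several start sites of a gene are overlaid on 1 line and their number is given in parentheses. Red circles are hypoxia response cores, blue squares NF-Y boxes and green triangles TATA boxes. Cores occur in 19 of 24 members (79.2%, against 52.3% of protein-coding genes), and Gpi1, Tpi1, Eno2, Gys1 and Gbe1 have none.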

How the data were processed

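The authors labelled total RNA of N2a cells, hybridised it to 8 arrays and analysed them in Agilent GeneSpring GX, leaving out genes under the 20th percentile of expression. The deposited log2 values are 1 centred mean per group and transcript cluster. Summarization, normalization between arrays, centring and genome build are not given in the sources used here. The deposited p-values and q-values, fold changes and directions are the authors' own comparison and were not used, except to check that 0 rows had an adjusted p above 0.01. Rows with any member symbol were taken, and the transcript cluster with most probes stood for a gene.

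Groups came from sample titles. The members, lists and 1.3-fold limit were chosen with earlier results of these data known, and named genes were Hsp90b1, all listed members, and pathway genes past 1.3-fold or largest in their list; Fbp1, Pdp1, G6pd2, Prps2 and Suclg2 were added after their values were seen, and 1 gene the rule names is not reported here. Transcript clusters were matched by Entrez identifier to GRCm38 (2061), where 13.3% overlapped their gene, so table positions are not on that build. Counting was tested on simulated data. Python 3.11.15, numpy 2.4.6, pandas 2.3.3, scipy 1.17.1 and matplotlib 3.10.9 were used.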

Additional observations from a re-analysis of the deposited data

How the results depend on the processing

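Of 76 values recomputed under alternatives, 58 stayed close to the reported ones (counts within 1.5 times, differences equal to 2 decimals, shares within their interval) and 18 moved. Some of the 58 could not move, such as isozyme pairs with 1 transcript cluster per gene, or counts of higher members at other fold limits. The tally is therefore no measure of how stable the results are. Re-centring on the median of all listed transcript clusters, a shift of 0.16 up that evens out directions by construction, left 24 members lower and 1 higher (Gapdh, 0.03), a median of -0.36, and 12 lower by over 1.3-fold. It left 1 pathway gene lower and 1 higher by that much, and 159 transcript clusters lower and 527 higher in the whole table. Counting transcript clusters in place of genes gave 59 lower and a median of -0.22, since Gapdh then counts 28 times. The counts follow the fold limit. At 1.2, 20 members, 12 pathway genes and 761 transcript clusters were lower and 355 transcript clusters higher. At 1.5 there were 12 members, 1 pathway gene and 128 lower and 34 higher transcript clusters, and at 2 there were 3 members, 0 pathway genes, 20 and 2. Taking the transcript cluster on the gene's own chromosome (the longest where several lay there), chosen after seeing the data, kept 16 members past the limit. The planned protein identity between isozymes was not run, no array could be left out, and no paired analysis was possible because the table holds 1 mean per group and its columns carry no replicate numbers.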

Other observations

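Several members lie close together on chromosome 6. From Slc2a3 to Gapdh, a stretch of 2.44 Mb at the positions of the table, there were 9 listed transcript clusters, of which 4 were those of Slc2a3, Eno2, Tpi1 and Gapdh, and Eno2 and Tpi1 lie 41.2 kb apart. The other 5 had a median of -0.20. Lpcat3, Gpr162, Ptms and Ing4 were lower and 1 was higher. Of these 5, 0 passed 1.3-fold, where 16.1% of all listed transcript clusters were lower and 6.26% higher by that much. With only 5, this cannot be told from that share. Eno2, Tpi1 and Slc2a3, which were chosen with results known, passed it. The higher one was Spsb2, at 0.27, whose annotated end lies 98 bases from that of Tpi1 on the opposite strand. These genes were named after their values were seen.

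Retrocopies of members were also in the table. Another 12 transcript clusters are described as Gapdh or its pseudogenes without carrying the Gapdh symbol, and all 12 were lower, with a median of -0.18, where 59.9% of all listed transcript clusters were lower and their median was -0.16. Re-centred on that median, an alternative added after the values were seen, 7 were lower and 5 higher, with a median of -0.01. The 4 with fewer than 15 probes had differences of -0.20 or lower, down to -0.44, while the other 8 lay between -0.19 and -0.13. This split was not planned. Copies of this kind share sequence with the parent, so the 12 values are not independent readings. Aldoart1, a retrogene of aldolase A, had -0.42 on 13 probes beside -0.35 for Aldoa. Gapdh is also the gene to which the study normalised its quantitative RT-PCR. In these arrays its difference was -0.14, near the median of all listed transcript clusters (-0.16), and 0.03 after re-centring on that median.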
